A study of Mus musculus with 6 samples.

Results

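The m6A machinery of the mouse oocyte was followed in MII oocytes of ICR females of advanced reproductive age through 10 genes: the writers Mettl3, Mettl14, Wtap and Virma, the readers Ythdc1, Ythdc2, Igf2bp2 and Igf2bp3, and the erasers Fto and Alkbh5. They were taken by gene name from the 53700 Ensembl genes of a matrix that lists 60193 genes, and each name matched 1 row. The IVM group (n = 3) held oocytes matured in vitro, and the IVO group (n = 3) held oocytes matured in vivo. All donors were ICR mice aged 42 to 45 weeks, with no transgene or allele named in the labels, that had received PMSG, the hormone that drives follicles to grow. IVM oocytes were freed of their cumulus cells at the germinal vesicle stage and cultured in M16 medium under paraffin oil. IVO donors were also injected with hCG, the ovulation trigger, and their oocytes matured inside the cumulus and were collected from the oviduct. Each library pooled oocytes of several mice. The hormone, the cumulus, the medium, the time to collection and the way of removing cumulus cells changed together. Their shares in a difference therefore cannot be told apart.

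N6-methyladenosine, or m6A, is a methyl mark placed on adenosines of mRNA. METTL3 is the catalytic subunit of the nuclear writer and works as a heterodimer with METTL14, which helps to bind the RNA. WTAP keeps the pair in nuclear speckles and VIRMA is the large scaffold of the complex. The mark is read by YTH domain proteins and by IGF2BP proteins, and it can be taken off again by the demethylases FTO and ALKBH5. A fully grown oocyte makes almost no new RNA and lives on stored maternal mRNA, whose use is controlled by its poly(A) tail, its translation and its decay.

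The values are FPKM, the number of fragments on a gene scaled to the length of its transcript and to the depth of the library. The libraries were primed from the poly(A) tail, so a difference in level between genes can reflect the amount of RNA or the length of its tail. The depth inferred from the steps between low values was 16400000 to 19300000 fragments in IVM and 17800000 to 18300000 in IVO libraries. The inferred fragment length was 205 to 215 bases in IVM and 245 to 265 bases in IVO libraries, and the groups did not overlap. All 12 oocyte markers had a mean of at least 1 FPKM, with a summed level of 21522 to 27970 FPKM in IVM and 21172 to 23357 FPKM in IVO libraries. This sum was carried by Oosp1 and Dppa3, whose groups overlapped, and 7 of the 12 (Zp1, Zp2, Zp3, Nlrp5, Padi6, Bmp15 and Mos) were lower in every IVO library than in every IVM library. Zp2, a gene of the zona pellucida, had 398 to 874 FPKM in IVM and 33.6 to 43.6 FPKM in IVO libraries. Of 16 cumulus and granulosa cell markers, 3 reached a mean of 1 FPKM (Amhr2, Cyp19a1 and Fshr), and their groups overlapped. Amhr2 was highest in the third library of both groups, at 27.89 FPKM in IVM and 21.91 FPKM in IVO, against 3.14 to 7.89 FPKM in the others. Cyp19a1 and Fshr did not share this pattern. The summed level of the 16 was 30.96 to 61.9 FPKM in IVM and 34.5 to 57.6 FPKM in IVO libraries, with Areg at 0 and Foxl2 and Lhcgr at no more than 0.15 FPKM. The cumulus expansion genes Tnfaip6, Has2 and Ptx3 were higher in every IVO library than in every IVM library, at 0.07 to 0.49 FPKM against at most 0.14 FPKM. Ptgs2 of the same list overlapped, at 0.16 to 0.50 FPKM in IVO and 0.04 to 0.19 FPKM in IVM libraries. These levels are low, since 3 fragments on 1000 bases of transcript equal 0.195 to 0.233 FPKM. Of 4 blood cell markers, 1 reached a mean of 1 FPKM (Cd68), and it was higher in every IVO library than in every IVM library. The hemoglobin gene Hbb-bs was at 2.33 and 2.04 FPKM in IVO replicates 2 and 3 and at 0 in the other libraries. The part of these marker differences in the results on m6A genes was not tested.

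Across the 18818 genes tested, 3366 DEGs (17.9%) had lower FPKM in IVO oocytes and 114 DEGs (0.606%) had higher FPKM. Among the 13154 of them with an Ensembl ID, as the m6A genes have, these shares were 14.6% and 0.623%. A DEG had a log2FC of at least 1 in size and an adjusted p-value under 0.05 in limma on log2(FPKM + 1). The log2FC is IVO against IVM, and because of the added 1 it is smaller in size than the true log2 ratio where FPKM is low. The summed FPKM of all listed genes was 1826737.51 to 2111776.5 in IVM and 1560813.35 to 1643682.39 in IVO libraries, and the groups did not overlap. The part of these totals in the log2FC was not tested. The median log2FC of all tested genes was -0.30. Median-ratio scaling brought it to -0.04, and then 84.7% rather than 96.7% of the DEGs were lower in IVO. The share was 59.0% with quantile normalization and 59.1% when a trend along transcript length was subtracted from each library. The log2FC of each of the 10 genes is therefore given both as deposited and with median-ratio scaling.

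All 10 genes were expressed and all 10 were tested. Mettl14 was the 1 DEG, with lower FPKM in IVO, in the FPKM as deposited but not with median-ratio scaling. In the FPKM as deposited, 0 of the 10 were DEGs in the other direction. When the p-value of limma was left unadjusted, Mettl14 and Fto were lower, and Wtap and Ythdc2 were higher, each under 0.05, as were 31.4% (lower) and 5.56% (higher) of all tested genes. In 5 of the 10 genes the libraries of both groups were fully apart. Of these, 2 (Mettl14 and Fto) were lower in IVO, as were 32.6% of all tested genes, and 3 (Wtap, Ythdc1 and Ythdc2) were higher in IVO, as were 9.62%. The median log2FC of the 10 genes was 0.15. In pooled oocytes, fewer oocytes holding a transcript and less of it per oocyte cannot be told apart.

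**Figure D1:**
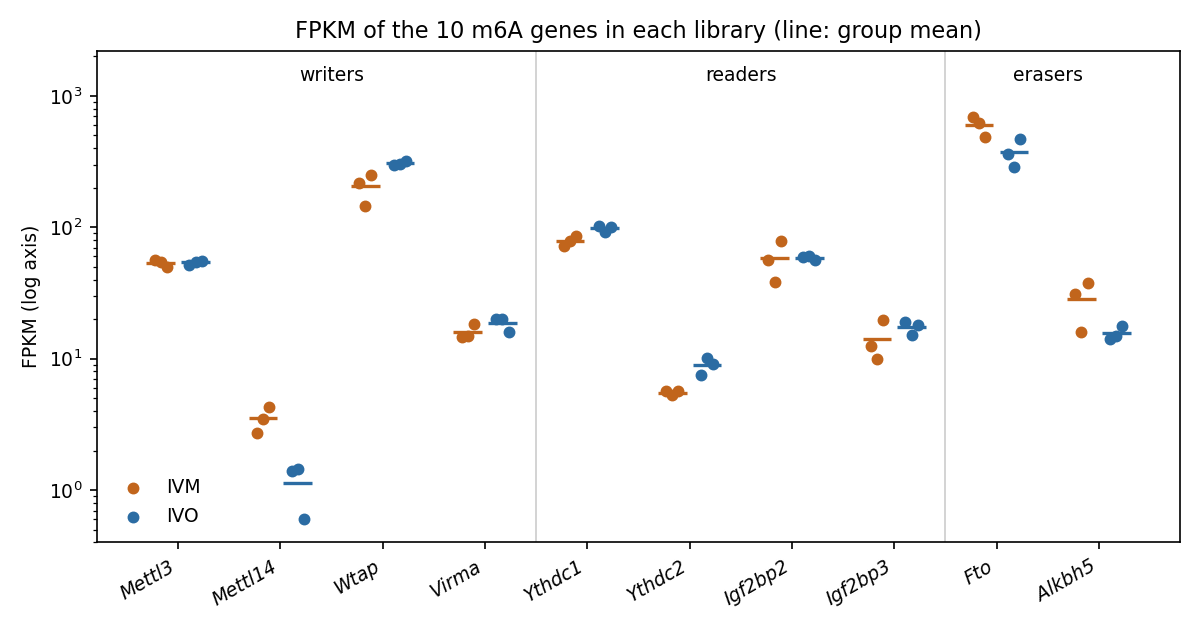
FPKM (log axis) of each of the 10 m6A genes in the 3 IVM and 3 IVO libraries, with points for libraries and a line at each group mean. Mettl14 sits lowest, at 2.73 to 4.32 FPKM in IVM and 0.60 to 1.44 FPKM in IVO, and Fto highest, while the points of Mettl3 lie at nearly the same height in both groups.

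The order of the levels ran over more than 2 decades. In IVM oocytes Fto stood first with a mean of 596 FPKM and Mettl14 last with 3.51 FPKM. Wtap (205 FPKM) followed Fto, and Ythdc1 (78.8), Igf2bp2 (58.0) and Mettl3 (53.6) came next, each overlapping its neighbour in this order. Alkbh5 (28.3), Virma (15.9) and Igf2bp3 (14.05) likewise overlapped their neighbours, and Ythdc2 (5.52) stood apart from Igf2bp3 above and Mettl14 below. In IVO oocytes the values of Fto (373 FPKM) and Wtap (307 FPKM) overlapped, whereas in IVM oocytes every Fto value was above every Wtap value. Ythdc1, Igf2bp2 and Mettl3 were apart from each other in IVO oocytes. Virma, Igf2bp3 and Alkbh5 overlapped their neighbours, and Ythdc2 and Mettl14 again came last.

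Mettl3 (ENSMUSG00000022160, chromosome 14 of GRCm39 from 52531551 to 52542608, minus strand), the catalytic subunit, had 56.6, 54.5 and 49.9 FPKM in IVM libraries. It had 51.6, 54.5 and 55.8 FPKM in IVO libraries, and the groups overlapped almost fully. The IVM mean was 53.6 ± 3.44 FPKM (SD, n = 3), against 54.0 ± 2.14 FPKM (SD, n = 3) for IVO. The log2FC was 0.01 with a 95% interval from -0.38 to 0.40 (limma, adjusted p = 0.974), and 0.33 with median-ratio scaling (limma, adjusted p = 0.209). Of the 6765 exonic bases annotated for Mettl3, 2308 are shared with Tox4 on the opposite strand. Tox4 had 4.37 to 7.41 FPKM, and reads of both genes cannot be told apart without strand.

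Mettl14 (ENSMUSG00000028114, chromosome 3 from 123154348 to 123179757, minus strand), the RNA-binding partner of METTL3, had 2.73, 3.49 and 4.32 FPKM in IVM libraries. It had 1.39, 1.44 and 0.60 FPKM in IVO libraries, all below every IVM value. These levels rest on about 113 to 210 fragments in IVM and 27 to 64 fragments in IVO libraries. Of the 8398 exonic bases annotated for Mettl14, 192 are shared with Sec24d on the opposite strand, which had 17.1 to 20.2 FPKM in IVM and 20.1 to 24.5 FPKM in IVO libraries. The IVM mean of 3.51 ± 0.795 FPKM (SD, n = 3) was 3.07-fold the IVO mean of 1.14 ± 0.471 FPKM (SD, n = 3). The log2FC was -1.09 (standard error 0.28, 95% interval -1.74 to -0.43, adjusted p = 0.0316 from limma), and it was -1.60 with a pseudocount of 0.1. With any 1 of the 6 libraries left out, Mettl14 was no DEG (limma, adjusted p from 0.0501 to 0.0807), although its log2FC stayed between -1.22 and -0.89. With median-ratio scaling the log2FC was -0.87 (limma, adjusted p = 0.0615), so the call also ended there. Among the protein-coding genes with a value above 0 in the same library, which does not depend on scaling, Mettl14 stood at the 41.8th to 48.0th percentile in IVM and at the 29.5th to 37.0th in IVO libraries.

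Wtap (ENSMUSG00000060475, chromosome 17 from 13184295 to 13213056, minus strand), which holds the writer in nuclear speckles, had 217, 146 and 252 FPKM in IVM libraries. It had 300, 303 and 320 FPKM in IVO libraries, each above every IVM value. The coefficient of variation was 26.4% in IVM and 3.52% in IVO libraries, and this difference in spread was not tested. The ratio of the means was 1.502, and the log2FC of 0.62 did not pass (95% interval 0.09 to 1.15, adjusted p = 0.0894 from limma). With median-ratio scaling it was 0.94 and the adjusted p-value 0.0273 (limma). Its percentile among protein-coding genes was 90.7 to 94.1 in IVM and 95.6 to 95.7 in IVO libraries.

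Virma (ENSMUSG00000040720, chromosome 4 from 11485948 to 11550686, plus strand), the scaffold, had 14.5, 14.9 and 18.2 FPKM in IVM and 20.0, 20.1 and 16.0 FPKM in IVO libraries. The groups overlapped, since the lowest IVO value was below the highest IVM value. The log2FC was 0.22 with a 95% interval from -0.25 to 0.69 (limma, adjusted p = 0.47), and 0.53 with median-ratio scaling (limma, adjusted p = 0.0837).

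The groups also stood apart in the makeup of the writer transcripts, which was not tested. Of the summed FPKM of the 4 writers, Mettl14 took 0.940%, 1.596% and 1.33% in the IVM libraries and 0.373%, 0.380% and 0.153% in the IVO libraries. The share of Wtap was 66.6% to 77.7% in the IVM libraries and 79.9% to 81.5% in the IVO libraries. That of Mettl3 was 15.4% to 24.9% and 13.8% to 14.4%. The values of the groups were apart for Mettl14, Wtap and Mettl3 and overlapped for Virma. These shares are parts of 1 sum that is mostly Wtap, so a higher Wtap level lowers the other shares. The FPKM of Mettl3 itself overlapped between the groups, with means of 53.6 in IVM and 54.0 in IVO. The summed level of the 4 writers was 219 to 324 FPKM in IVM and 373 to 392 FPKM in IVO libraries.

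The transcript ends of the 10 genes were also searched for an element that the choice of genes did not use. A cytoplasmic polyadenylation element near the poly(A) signal allows the tail of a stored oocyte mRNA to be lengthened during maturation. The last 100 bases of the canonical GENCODE M39 transcript of each gene were searched on the transcript strand for TTTTAT and TTTTAAT, and for the poly(A) signal AATAAA, which can overlap TTTTAAT. The transcripts with TTTTAT were Mettl14 (1 match) and Wtap (2 matches), while TTTTAAT occurred in 0 of the 10 genes and AATAAA in 7 of them. Of 19657 protein-coding genes with a 3′ UTR of at least 100 bases, 17.0% held TTTTAT or TTTTAAT in this window and 63.0% held AATAAA. With TTTTAT in 2 and AATAAA in 7 of the 10 genes, both counts lay near these shares. Shown are 30 bases each of Mettl14, the 1 DEG, and of Wtap, the member with the highest log2FC in the FPKM as deposited. Mettl3 and Fto, without the element, follow. All are written 5′ to 3′ on the transcript strand, with TTTTAT and AATAAA in capitals.
Mettl14 (chr3:123161961-123161990, minus strand): TTTTATtttgctataacttttctAATAAAa
Wtap (chr17:13185686-13185715, minus strand): accaaacctaAATAAAcatTTTTATtacga
Mettl3 (chr14:52532320-52532349, minus strand): tgtatataAATAAATAAAagtttgtattat
Fto (chr8:92395027-92395056, plus strand): ttgttcatacacAATAAAgaattaaacgat
These matches describe the letters of 1 annotated transcript end per gene in GRCm39. In Mettl14 TTTTAT lies before AATAAA. In Wtap the shown match lies after AATAAA, and the other match lies before the shown bases. The log2FC of these genes was -1.09 and 0.62, and a link between the element or its position and the log2FC was not tested.

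The consensus of the m6A site itself was present in all 10 transcripts. GGACT occurred 2 times in Igf2bp3 and 11 times in Alkbh5, the lowest and the highest count, and 88.9% of all protein-coding genes held at least 1 match. Per kilobase the count ran from 0.416 in Ythdc2 to 2.09 in Wtap, with a median of 1.01 over all protein-coding genes. The 3′ UTR was 144 bases long in Mettl3 and 4108 bases in Alkbh5, the ends of the range among the 10 genes.

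Among Ythdc1, Ythdc2, Igf2bp2 and Igf2bp3, the reader Ythdc1 (ENSMUSG00000035851, chromosome 5 from 86951957 to 86985080, plus strand) had the highest mean level. YTHDC1 is the nuclear reader that acts on splicing and polyadenylation and is required in mouse oocytes. It had 71.6, 78.7 and 86.0 FPKM in IVM and 102, 92.3 and 101 FPKM in IVO libraries, and the groups did not overlap. The IVM mean was 78.8 ± 7.22 FPKM (SD, n = 3) and the IVO mean 98.4 ± 5.23 FPKM (SD, n = 3), a ratio of 1.25. The log2FC of 0.32 did not pass (95% interval -0.07 to 0.71, adjusted p = 0.211 from limma), whereas with median-ratio scaling it was 0.64 and the adjusted p-value 0.0372 (limma).

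Ythdc2 (ENSMUSG00000034653, chromosome 18 from 44960813 to 45022791, plus strand), an RNA helicase with a YTH domain that germ cells need to enter and pass through meiotic prophase, had 5.63, 5.27 and 5.65 FPKM in IVM libraries. It had 7.54, 10.04 and 9.17 FPKM in IVO libraries, each above every IVM value. The level rests on about 646 to 761 fragments in IVM and 959 to 1245 fragments in IVO libraries. The ratio of the means was 1.62, and the log2FC of 0.60 did not pass (95% interval 0.13 to 1.07, adjusted p = 0.0705 from limma). With median-ratio scaling it was 0.88 and the adjusted p-value 0.028 (limma). Its percentile was 51.9 to 53.2 in IVM and 58.7 to 63.3 in IVO libraries.

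The IGF2BP readers bind m6A-bearing mRNA and favour its stability and translation. Igf2bp2 (ENSMUSG00000033581, chromosome 16 from 21877759 to 21982499, minus strand) had 56.7, 38.2 and 79.2 FPKM in IVM and 59.1, 60.0 and 56.3 FPKM in IVO libraries. The IVO values lay inside the range of the IVM values, with a log2FC of 0.07 and a 95% interval from -0.57 to 0.71 (limma, adjusted p = 0.88), and 0.39 with median-ratio scaling (limma, adjusted p = 0.298). Igf2bp3 (ENSMUSG00000029814, chromosome 6 from 49062144 to 49192447, minus strand) had 12.45, 9.89 and 19.8 FPKM in IVM and 18.9, 15.1 and 17.9 FPKM in IVO libraries. Its groups also overlapped, with a log2FC of 0.33 and a 95% interval from -0.32 to 0.98 (limma, adjusted p = 0.434), and its median-ratio value was 0.63 (limma, adjusted p = 0.116). In both genes the IVM libraries had the wider spread, with a coefficient of variation of 35.4% and 36.7% against 3.32% and 11.6% in IVO. Of the 8728 exonic bases of Igf2bp3, 1685 are shared with Malsu1 on the opposite strand, which had 4.75 to 10.2 FPKM.

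Of the erasers, Fto (ENSMUSG00000055932, chromosome 8 from 92039953 to 92395070, plus strand) had the highest mean FPKM of the 10 genes. FTO removes the methyl group from m6A and from the related mark next to the cap. It had 685, 618 and 485 FPKM in IVM and 360, 287 and 473 FPKM in IVO libraries. The groups did not overlap, but the third IVO library lay close to the lowest IVM library. The IVM mean was 596 ± 102 FPKM (SD, n = 3) and the IVO mean 373 ± 93.9 FPKM (SD, n = 3), a ratio of 0.626. The log2FC of -0.69 did not pass (95% interval -1.24 to -0.14, adjusted p = 0.072 from limma) and was -0.37 with median-ratio scaling (limma, adjusted p = 0.319). Its percentile of 96.6 to 97.2 in IVM overlapped that of 95.4 to 96.9 in IVO libraries.

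Alkbh5 (ENSMUSG00000042650, chromosome 11 from 60427207 to 60449346, plus strand), a nuclear m6A demethylase, had 31.3, 15.9 and 37.7 FPKM in IVM and 14.2, 14.8 and 17.9 FPKM in IVO libraries. The second IVM library lay among the IVO libraries, so the groups overlapped. The log2FC of -0.74 did not pass (95% interval -1.51 to 0.03, adjusted p = 0.149 from limma), nor did the -0.43 obtained under median-ratio scaling (limma, adjusted p = 0.344). Without the second IVM library the log2FC was -1.10 and Alkbh5 was a DEG (limma, adjusted p = 0.0269), so 1 library decides this call.

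**Figure D2:**
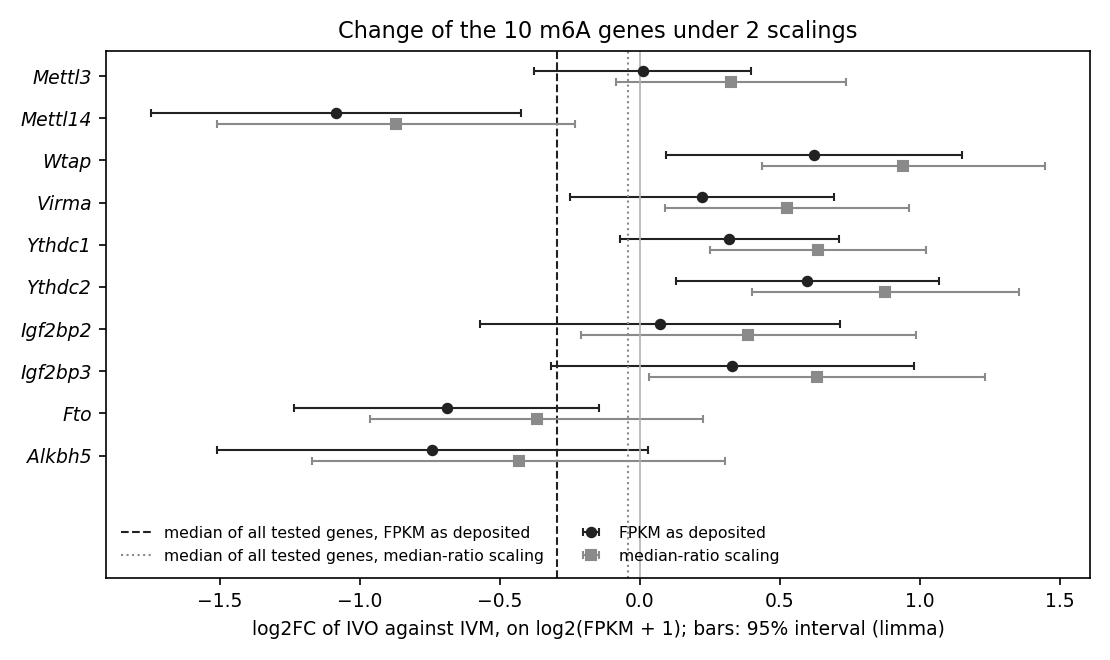
The log2FC of IVO against IVM (x axis, on log2(FPKM + 1)) for the 10 genes, with 95% intervals from limma, for the FPKM as deposited (black circles) and with median-ratio scaling (grey squares). Vertical lines mark the median of all tested genes under each scaling, -0.30 and -0.04, and Mettl14, Fto and Alkbh5 are the genes to the left of 0.

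The scaling decided which of these genes passed. With median-ratio scaling, 3 of the 10 genes (Wtap, Ythdc1 and Ythdc2) had an adjusted p-value under 0.05 and higher FPKM in IVO, beside 7.14% of all tested genes, and 0 had one with lower FPKM, beside 13.2%. None of the 3 reached a log2FC of 1 there, and 0 of the 10 were DEGs in limma, beside 11.3% of all tested genes as lower and 2.05% as higher DEGs. An unadjusted p-value under 0.05 was found there for 1 lower and 5 higher of the 10 genes, beside 22.4% and 15.8% of all tested genes. The median log2FC of the 10 genes was 0.46 under that scaling, and the signs were the same as with the FPKM as deposited, with 7 positive and 3 negative.

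A ratio between 2 genes of the same library is the same under any scaling of libraries by a factor. Each of the 8 ratios computed was tested by permuting the 6 libraries exactly (two-sided), where 0.1 is the smallest p-value possible, so none could pass. Mettl14 relative to Mettl3 was 0.0482, 0.0640 and 0.0866 in IVM and 0.0269, 0.0264 and 0.0108 in IVO libraries. The mean log2 ratio was -3.96 ± 0.422 (SD, n = 3) for IVM and -5.67 ± 0.757 (SD, n = 3) for IVO, a difference of -1.71 (exact permutation p = 0.1, adjusted over the 8 ratios 0.229). Every IVM library thus held more Mettl14 per Mettl3 than every IVO library.

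Wtap relative to Mettl3 was 3.83, 2.67 and 5.05 in IVM and 5.81, 5.55 and 5.73 in IVO libraries, a difference of 0.61 on the log2 scale with no overlap (exact permutation p = 0.1, adjusted 0.229). Mettl3 relative to Fto was 0.0826, 0.0882 and 0.103 in IVM and 0.143, 0.190 and 0.118 in IVO libraries, a difference of 0.70 with no overlap (exact permutation p = 0.1, adjusted 0.229). In the remaining ratios the groups overlapped. The log2 ratio of Mettl3 to Alkbh5 was higher by 0.78 in IVO, that of Igf2bp3 to Igf2bp2 by 0.28 and that of Virma to Mettl3 by 0.23, and that of Ythdc1 to Ythdc2 differed by -0.36 (exact permutation p = 0.2 for each, adjusted 0.229). The ratio of Fto to Alkbh5 ranged from 12.9 to 38.9 in IVM and from 19.4 to 26.5 in IVO libraries, and its log2 values differed by 0.08 (exact permutation p = 0.9).

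**Figure D3:**
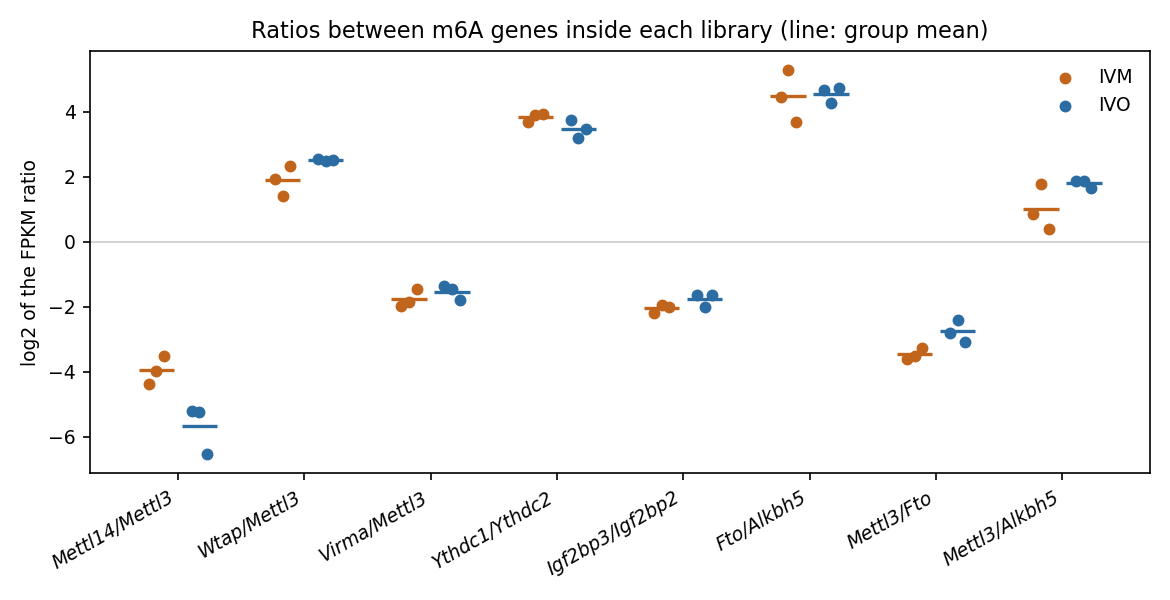
The log2 of 8 FPKM ratios between m6A genes (y axis) inside each of the 3 IVM and 3 IVO libraries, with points for libraries and a line at each group mean. Mettl14/Mettl3 is lower in IVO (group means -3.96 and -5.67), Wtap/Mettl3 and Mettl3/Fto are higher, and the other ratios overlap.

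A further 34 genes of the pathway were looked up, and 28 reached the mean of 1 FPKM needed for the test. Of these, Fxr2 was the 1 DEG with lower FPKM in IVO, beside 17.9% of all tested genes, and 0 DEGs had higher FPKM, beside 0.606%. Before adjustment, 3 lower and 3 higher genes had a p-value under 0.05 in limma, beside 31.4% and 5.56% of all tested genes. Without the fold threshold, 2 had an adjusted p-value under 0.05 and lower FPKM in IVO (Fxr2 and Pcif1), beside 21.5% of all tested genes, and 2 had higher FPKM (Ythdf3 and Srsf3), beside 1.87%. The median log2FC of the 28 genes was 0.15, and 0.45 once median-ratio scaling was applied.

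The auxiliary writer subunits, which guide the complex to its sites or hold it together, did not pass the test. Zc3h13 had 19.0, 21.3 and 30.6 FPKM in IVM and 24.0, 20.1 and 21.9 FPKM in IVO libraries, with a log2FC of -0.07 (95% interval -0.61 to 0.47) that was 0.24 with median-ratio scaling. The mean FPKM in IVM and IVO was 14.3 and 16.0 for Cbll1, which encodes the HAKAI subunit, and 6.12 and 6.86 for Rbm15. Their log2FC was 0.17 (95% interval -0.35 to 0.69) and 0.14 (95% interval -0.36 to 0.64). Rbm15b was not tested, at 0.56 to 1.15 FPKM over the 6 libraries. Mettl16, a separate methyltransferase that marks U6 snRNA and the Mat2a mRNA, had a log2FC of -0.01 (95% interval -0.69 to 0.67), and 0.25 with median-ratio scaling.

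Pcif1, the writer of the cap-adjacent mark that FTO removes, had 244, 252 and 251 FPKM in IVM and 161, 155 and 174 FPKM in IVO libraries, with no overlap. The log2FC was -0.60 (95% interval -0.95 to -0.26, adjusted p = 0.026 from limma), under the fold threshold, and -0.28 with median-ratio scaling (limma, adjusted p = 0.223), so its call rests on the scaling.

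The YTHDF proteins are the cytoplasmic readers. Ythdf3 had 61.5, 61.3 and 70.7 FPKM in IVM and 98.3, 88.9 and 99.8 FPKM in IVO libraries, and the groups did not overlap. Its log2FC was 0.56 (95% interval 0.17 to 0.95, adjusted p = 0.0487 from limma) and 0.88 with median-ratio scaling (limma, adjusted p = 0.0155). Ythdf2, which directs marked maternal mRNA to decay, had 35.6, 24.9 and 43.1 FPKM in IVM and 41.4, 36.4 and 39.4 FPKM in IVO libraries. Its groups overlapped, with a log2FC of 0.21 (95% interval -0.35 to 0.76) that became 0.52 under median-ratio scaling. Ythdf1 had means of 3.39 FPKM in IVM and 2.17 FPKM in IVO, with a log2FC of -0.49 (95% interval -1.13 to 0.15). Igf2bp1 had means of 74.85 FPKM in IVM and 86.9 FPKM in IVO, with a log2FC of 0.20 (95% interval -0.52 to 0.91) that became 0.52 as well. Neither passed.

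Fxr2, a relative of the fragile X protein that binds RNA, had 4.01, 2.47 and 4.52 FPKM in IVM and 0.55, 0.60 and 0.75 FPKM in IVO libraries. Behind these values were about 131 to 238 fragments in IVM and only 27 to 36 fragments in IVO libraries. Every IVO value was below every IVM value, with a log2FC of -1.49 (95% interval -2.12 to -0.86, adjusted p = 0.00933 from limma). It was also a DEG under median-ratio scaling, at -1.29 (limma, adjusted p = 0.0184). Its paralogs Fxr1 and Fmr1 did not pass, at a log2FC of 0.27 and -0.01, the latter 0.24 with median-ratio scaling. Srsf3, the splicing factor that YTHDC1 recruits, had 50.4, 59.8 and 56.9 FPKM in IVM and 108, 110 and 102 FPKM in IVO libraries. Its log2FC was 0.93 (95% interval 0.54 to 1.31, adjusted p = 0.00903 from limma), and it was a DEG with median-ratio scaling at 1.24.

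**Figure D4:**
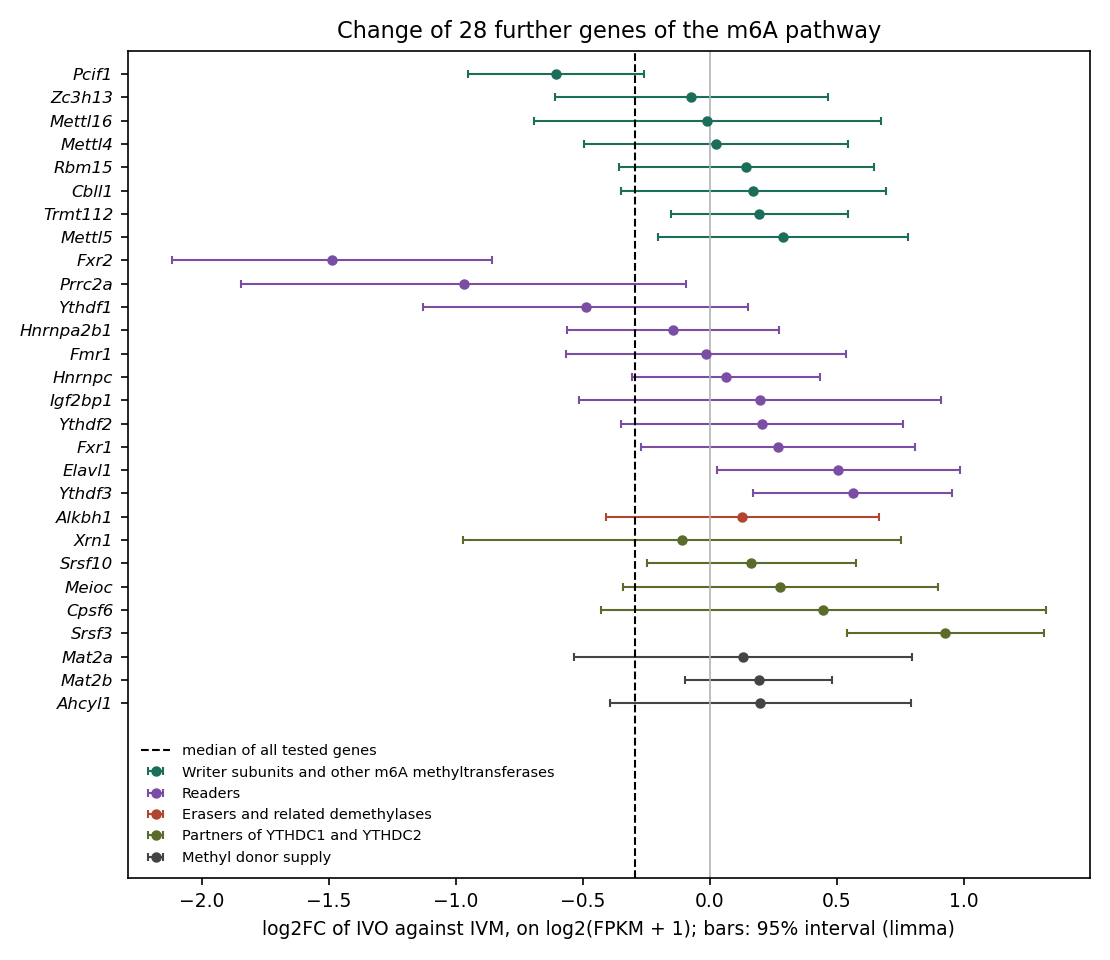
The log2FC of IVO against IVM (x axis, on log2(FPKM + 1), FPKM as deposited) with 95% intervals from limma for the 28 tested genes of the wider m6A list, colored by role. Fxr2 lies farthest left at -1.49 and Srsf3 farthest right at 0.93, and the dashed line marks the median of all tested genes at -0.30.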

How the data were processed

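The 6 libraries (3 IVM, 3 IVO) were made by the authors with the SMART-Seq v4 and Nextera XT kits. Reads were filtered with SeqPrep and Sickle, aligned to GRCm39 with HISAT2 2.1.0 and quantified with RSEM 1.3.3, versions as in the submitters' processing notes. The deposited values are FPKM per gene and sample, rounded by the authors, with the authors' mean FPKM of each group, which was not used. The SMART-Seq kit primes from the poly(A) tail, so the amount of an RNA and the length of its tail cannot be told apart. The kit keeps no strand. The study's methods call the libraries biological replicates, each from pooled oocytes.

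Depth and mean fragment length were read from the spacing of small FPKM values over 9506 genes that have a single transcript. Within a tolerance of 0.1 fragments, 74.3% to 75.4% of the values used per library were whole. On 1000 bases of transcript, 3 fragments equal 0.195 to 0.233 FPKM, a limit for counting error alone.

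The groups were compared in R 4.3.3 by limma 3.58.1, with a trended eBayes prior and the group as the only term. Log2(FPKM + 1) of the 18818 genes whose mean reached 1 FPKM entered the model. P-values were two-sided and adjusted by Benjamini-Hochberg over all tested genes. The study's own test, DESeq2, needs counts and was not run. Permutation tests used scipy 1.17.1. The limma fit and the inference of depth were tried on simulated data, and the permutation test was not. Gene coordinates, exons and transcript sequences are from GENCODE M39 on GRCm39, the build of the deposited files. The genes, lists and tests were chosen with earlier results of these data known. Named are the 10 genes, the YTHDF readers, Igf2bp1, Zc3h13, Rbm15, Rbm15b, Cbll1, Mettl16 and each gene of the wider list that was a DEG. Pcif1, Srsf3, the paralogs of Fxr2 and the single marker genes were named after their values were seen.

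Settings tried besides were a pseudocount of 0.1, no filter, a mean of at least 5 FPKM, median-ratio scaling, quantile normalization, eBayes without trend, Ensembl genes only, the replicate number as a block, the trend with gene length removed by lowess (span 0.3) with and without this block, and leaving out each library in turn.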

Additional observations from a re-analysis of the deposited data

How the results depend on the processing

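The call of Mettl14 was the most dependent on the processing. It remained a DEG with a pseudocount of 0.1, with eBayes without trend and with Ensembl genes only. The count of m6A genes that were DEGs lower in IVO was 0 in place of 1 with no filter, with a mean of at least 5 FPKM (which leaves Mettl14 out), with median-ratio scaling, with quantile normalization, with the length trend removed, with the replicate block, and with both. The same settings gave 0 in place of 1 lower gene with an adjusted p-value under 0.05. With 1 library left out in turn, both counts ranged from 0 to 1, and where a gene was counted it was Alkbh5 (without the second IVM library) or, by p-value alone, Fto (without the third IVO library, limma adjusted p = 0.0432). Higher genes with an adjusted p-value under 0.05 numbered 3 with median-ratio scaling, 4 with quantile normalization and 3 with the length trend removed, in place of 0. The share of all tested genes was 7.14% with median-ratio scaling and was not computed for the other 2 settings. With quantile normalization 2 of them, Wtap at a log2FC of 1.12 and Ythdc2 at 1.09, were DEGs. Higher DEGs over all 18818 tested genes rose as well, from 114 to 1097 with quantile normalization and to 909 with the length trend removed.

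In the wider list the lower DEGs numbered 0 with a mean of at least 5 FPKM, where Fxr2 is left out, 0 when the replicate block was joined with removal of the length trend, and 1 to 2 with 1 library left out. The higher DEGs numbered 1 with median-ratio scaling, 3 with quantile normalization, and 1 with the length trend removed, with or without the block. Over all tested genes, the lower DEGs numbered 2130 with median-ratio scaling, 1580 with quantile normalization, 1972 with Ensembl genes only, 1314 with the length trend removed and 627 with that and the replicate block. The higher DEGs numbered 385, 1097, 84, 909 and 350 in the same order. Leaving out 1 library gave 2276 to 3174 lower and 82 to 130 higher DEGs.

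With 1 library left out, the log2FC of Mettl3 ranged from -0.0408 (without the third IVM library) to 0.0487 and was -0.01 without the third IVO library. That of Igf2bp2 ranged from -0.19 (without the second IVM library) to 0.3226. The log2 ratio of Fto to Alkbh5 ranged from -0.31 (without the third IVM library) to 0.49 with 1 library left out, and it was -0.0034 without the third IVO library. No other ratio changed its sign. The cause of these changes was not tested, except where a gene was left out.

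The libraries share replicate numbers. Correlations across genes of the deviations from the group mean were -0.06, -0.02 and -0.11 between same-numbered libraries, and no library correlated best with its own number. The deviations of a gene cancel out within a group, so these correlations cannot decide whether same-numbered libraries shared a batch. Amhr2 and the summed cumulus and granulosa cell markers were highest in the third library of both groups. With the replicate block, Mettl14 kept a log2FC of -1.09 with an adjusted p = 0.0844 (limma), and 2899 lower and 92 higher DEGs were called over all genes. Depth limits Mettl14 most, with 27 fragments in the third IVO library.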
